A study of Mus musculus with 40 samples.

Results

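The genes described here were 40 that act at or next to the T cell receptor (TCR) and its costimulator CD28. They were taken by gene symbol from the deposited table of 21950 genes, and all 40 were found once. By role they were 4 subunits of the TCR complex, 5 other surface molecules, 4 kinases, 10 adaptors, 8 downstream effectors and 9 genes known mainly as brakes or as regulators of the first kinase. These 9 are called brakes below, Ptprc among them, although its product acts on that kinase in both directions. Each was read well above the detection limit: the lowest count of any of them in any library was 22 reads, for Nck2.

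RNA-seq was made from mouse CD4+ T cells in 24 libraries, 3 in each of 8 groups. Conventional T cells (Tconvs) and thymus-derived regulatory T cells (tTregs, labelled nTreg) came from the spleen of Foxp3-GFP reporter mice aged 2 to 4 months, and each was sequenced resting and activated through CD3 and CD28. Induced regulatory T cells (iTregs) were made from naive CD4+ T cells of mice aged 6 weeks by 4 days on plate-bound anti-CD3 (0.5 µg per ml) and anti-CD28 (1 µg per ml) with IL-2 and 2 ng per ml TGF-β. They were then sorted on the Foxp3 reporter and rested for 1 day. The iTregs were sequenced resting, restimulated through CD3 and CD28, and restimulated with an inhibitor. One inhibitor group was labelled only as an ORAI inhibitor, read here as CM-4620 from the study's description of its RNA-seq, a blocker of the ORAI calcium channel. The other was cyclosporine A (CsA), which blocks calcineurin, the phosphatase that activates the transcription factor NFAT. Every iTreg library, the resting ones included, thus came from cells that had already been stimulated through the TCR. The cell type label of the CsA libraries reads only Treg. How long cells were activated or restimulated before RNA was taken is not given in the sources used here. Nothing in the labels says that libraries of 1 group came from separate animals or cultures, so the p-values measure the spread between libraries, which may be technical.

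When a TCR binds its ligand, the kinase LCK, brought in by CD4, phosphorylates motifs in the tails of the CD3 chains and of CD3ζ (encoded by Cd247). ZAP70 docks on these motifs and phosphorylates the adaptors LAT and SLP-76 (Lcp2), which gather PLCγ1, VAV1 and further adaptors at the membrane. PLCγ1 starts the calcium branch that ends in calcineurin and NFAT, while RASGRP1 and SOS1 feed RAS and PKCθ (Prkcq) feeds NF-κB through BCL10 and MALT1. CSK, which is tethered by PAG1, and the phosphatases SHP-1 (Ptpn6) and PTPN22 hold these steps down, and CD45 (Ptprc) acts on LCK in both directions. The transcripts of these genes were measured, not the proteins, their phosphorylation or their place in the cell.

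Recovered reads per library ranged from 5256800 to 15685234, and the shallowest groups were those of tTregs. Values are normalized counts, meaning read counts of a gene after each library was scaled by its own size factor. Libraries of 1 group had a variance 2.69 to 36.3 times that of counting error, and pairs of tTreg libraries stood at the upper end, between 12.7 and 36.3. Groups were checked against their labels by summed Foxp3, Il2ra, Ikzf2 and Ctla4. The sum was between 458 and 478 in resting Tconvs, between 25348 and 28206 in resting tTregs and between 13240 and 17057 in resting iTregs. Activated Tconvs reached 5116 to 5357, mostly through Il2ra (mean 4351), which also made up most of the iTreg sum. Mean Foxp3 matched the labels: 7537 for tTregs and 1280 for iTregs at rest, against 10.4 for resting and 33.9 for activated Tconvs. Ikzf2 did not set iTregs apart from Tconvs: at rest its mean was 167 for iTregs, 195 for Tconvs and 9403 for tTregs. None of 16 markers of B cells, myeloid cells, dendritic cells, NK cells and erythroid cells passed 30.9 normalized counts in any library apart from Cd79b, which ran from 5.27 to 126 and was highest in resting tTregs. The summed CD8 T cell markers Cd8a and Cd8b1 were highest in resting Tconvs, at 223 to 236. They ran from 157 to 178 in resting tTregs, from 99.1 to 122 in resting iTregs and from 109.5 to 123 in activated Tconvs. Nearly all of each sum was Cd8b1. Mean Cd8a alone went the other way, at 2.57 for Tconvs, 9.65 for tTregs and 6.63 for iTregs at rest, so the 2 markers did not shift together. The part of these shifts in the results was not tested.

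**Figure D1:**
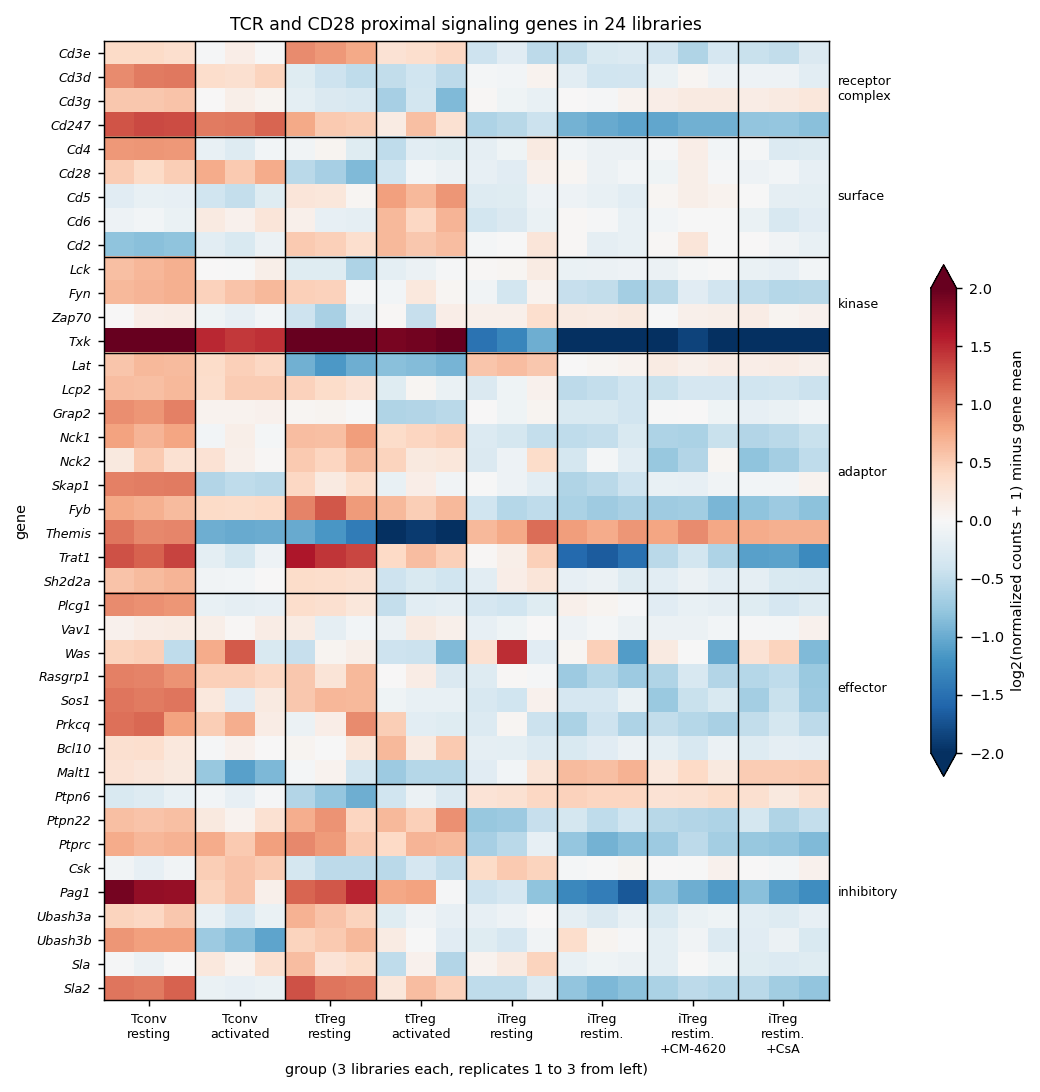
Each row is 1 of the 40 genes, ordered by role, and each column is 1 of the 24 libraries; color gives log2(normalized counts + 1) minus the mean of that gene over all libraries, cut at 2 in either direction. Most rows are red in resting Tconvs, Txk is blue in all iTreg libraries, Themis is blue in activated Tconvs and in both tTreg groups, and Was varies within groups.

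Over the 8 groups, 21 of the 40 genes had their highest mean in resting Tconvs and 9 in resting tTregs. An iTreg group held the lowest mean of 21 genes, but iTregs make up 4 of the 8 groups. The same counts were not made over all genes, so they are a description only. The ratio of the highest to the lowest group mean had a median of 2.52 over the 40 genes. It passed 4 for 5 of them, with 56.4 for Txk, 9.65 for Pag1, 8.24 for Themis, 8.22 for Trat1 and 4.93 for Cd247, and it stayed under 2 for 8 genes. Per kilobase of principal transcript, the scale on which levels of different genes can be compared, the order in resting Tconvs began with Cd3d at 6919, Cd3g at 6489, Lck at 6332 and Lat at 6255 and ended with Sos1 at 30.5 and Nck2 at 18.6. In resting tTregs the first was Cd2 at 8924, and in resting iTregs it was again Cd2, at 6899. These are bulk libraries, in which fewer cells with a transcript and less transcript per cell cannot be told apart.

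The subunits of the receptor complex were read first, because they carry the signal into the cell. Cd3e, Cd3d and Cd3g form a cluster on chromosome 9 of the mouse GRCm38 build, at chr9:44998740-45009627, chr9:44981786-44987339 and chr9:44969572-44980431, and Cd247 lies at chr1:165788681-165877277. For Cd247, 60.3% of exon bases also lie in exons of Pou2f1 or of Gm16565, and the libraries did not keep strand, so its reads there cannot be told apart from theirs. In resting Tconvs Cd3e was read at 3489.6, 3463 and 3373, Cd3d at 10701, 11398 and 11464, Cd3g at 6590.5, 6590 and 6734 and Cd247 at 7397, 7699 and 7671 normalized counts in the 3 libraries. In resting tTregs the values were 5104, 4878 and 4521 for Cd3e, 4693, 4158 and 3908 for Cd3d, 3975, 3723 and 3614 for Cd3g and 5228, 4457 and 4362 for Cd247. Resting iTregs had 1989, 2281 and 1862 for Cd3e, 5398, 5334 and 5802 for Cd3d, 4584, 4246 and 4094 for Cd3g and 2022, 2097 and 2291 for Cd247. Cd3e was thus highest in tTregs while the other subunits were highest in Tconvs, and no library of 1 of these resting groups overlapped another for Cd3e or Cd247. As a share of the summed level per kilobase of the 4 subunits, Cd3e made up 11.5 ± 0.396% (SD, n = 3) in resting Tconvs, 26.5 ± 0.646% in resting tTregs and 13.5 ± 1.44% in resting iTregs. Cd247 made up 22.8 ± 0.128%, 22.9 ± 0.765% and 12.7 ± 0.909% in the same order. Cd3g made up 31.8 ± 0.470%, 29.5 ± 0.673% and 40.8 ± 2.05%. The subunit transcripts therefore stood in different proportions in the 3 cell types, with Cd3e making a larger share in tTregs and Cd247 a smaller share in iTregs. After restimulation of iTregs the share of Cd247 was 9.87 ± 0.407% and that of Cd3g was 46.9 ± 1.01%. The shares are a description with no test.

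**Figure D2:**
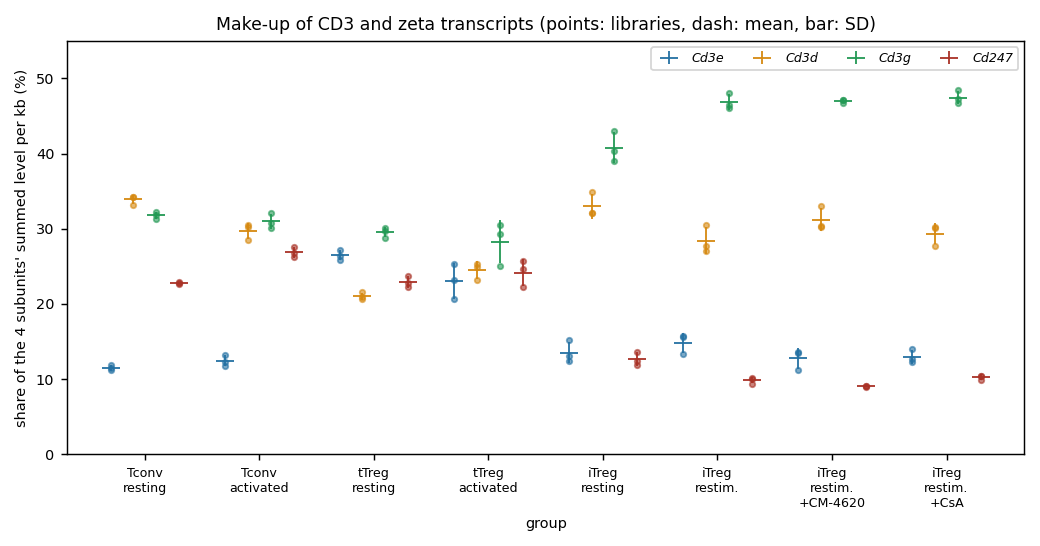
Each point is 1 library and gives the share (%) that 1 subunit holds of the summed normalized counts per kilobase of Cd3e, Cd3d, Cd3g and Cd247, by group; dashes are means and bars are SD over 3 libraries. Cd3e lies near 26.5% in resting tTregs and 11.5% in resting Tconvs, and Cd247 lies at 13.7% or less in every iTreg library.

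Ratios of related genes within a library were read next, again per kilobase and with no test. Lck, the main SRC-family kinase of T cells, stood at 33.0 ± 0.451 times Fyn in resting Tconvs, 23.3 ± 0.925 after their activation, 21.2 ± 1.13 in tTregs at rest, 29.8 ± 2.77 in tTregs after activation and 38.6 ± 4.79 in resting iTregs. Csk, the kinase that switches LCK off, stood at 0.0639 ± 0.00313 of Lck in resting Tconvs, 0.151 ± 0.0101 after their activation, and 0.141 ± 0.0107 in resting iTregs. In tTregs it was 0.102 ± 0.0137 at rest and 0.0856 ± 0.00687 after activation. The ratio was thus higher in activated than in resting Tconvs with no overlap of libraries, and the libraries of activated and resting tTregs overlapped. Sla stood at 1.40 ± 0.0452 times Sla2 in resting Tconvs, 3.96 ± 0.331 after their activation and 4.92 ± 0.273 in resting iTregs, against 1.91 ± 0.0956 and 1.85 ± 0.321 in tTregs at rest and activated. Sla and Sla2 encode the adaptors SLAP and SLAP-2, which help remove receptor chains from the surface. Csk over Lck and Sla over Sla2 were thus lowest in resting Tconvs, whose libraries overlapped none of these other groups. Zap70 over Lck was 0.187 ± 0.00458 in resting Tconvs, 0.250 ± 0.00771 in activated Tconvs and 0.297 ± 0.0110 in resting iTregs, while the 3 resting tTreg libraries ranged widely, at 0.243, 0.208 and 0.373. Cd5 over Cd6 stayed between 0.903 ± 0.0312 in activated Tconvs and 1.56 ± 0.148 in resting tTregs. Ubash3a over Ubash3b was 3.46 ± 0.191 in resting and 7.19 ± 1.13 in activated Tconvs, against 4.61 ± 0.703 and 4.09 ± 0.660 in tTregs at rest and activated, whose libraries overlapped. Nck1 over Nck2 ranged from 10.5 ± 3.07 in resting iTregs to 17.4 ± 2.70 in resting Tconvs, and the libraries of those groups did not overlap.

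The next question was how activation changed these transcripts in Tconvs. Of the 40 genes, 18 fell and 2 rose (limma with Benjamini-Hochberg adjustment, adjusted p under 0.05 and absolute log2 fold change above 0.5). The total of 20 is 50% of the genes described here, against 50.2% of all 11495 genes tested, of which 24.5% rose and 25.7% fell. The median log2 fold change was -0.44 over the 40 and -0.04 over all genes tested. By role, 6 of 10 adaptors, 4 of 8 effectors, 2 of 4 kinases, 1 of 4 receptor subunits, 1 of 5 surface molecules and 4 of 9 brakes fell, and the genes that rose were Cd2 and Csk.

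Among kinases and receptor subunits, Cd3d fell from the resting values above to 7077, 6908 and 7549 in activated Tconvs (log2 fold change -0.64 ± 0.078, adjusted p = 4.71e-06; ± gives the SE of the fit here and below). Cd4, the coreceptor that brings LCK to the receptor, was read at 8729, 8818 and 8749.9 in resting and 4311, 4028 and 4619.5 in activated Tconvs (log2 fold change -1.02 ± 0.11, adjusted p = 9.67e-07). Lck fell from 13377, 13829 and 14300 to 8789.6, 8684 and 9525 (log2 fold change -0.62 ± 0.10, adjusted p = 6.09e-05). In none of these did a resting library overlap an activated one. Txk, a TEC-family kinase that can act on PLCγ1, was read at 2425, 2426 and 2526 in resting and 1102, 1038 and 1066 in activated Tconvs (log2 fold change -1.20 ± 0.11, adjusted p = 3.49e-07). Zap70 and Fyn did not pass the test, with log2 fold changes of -0.20 ± 0.14 and -0.12 ± 0.14.

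The widest fall was that of an adaptor. Themis, an adaptor needed for T cell selection in the thymus that binds SHP-1 and GRB2, was read at 2789, 2578 and 2605 in resting and 673, 655 and 664 in activated Tconvs (log2 fold change -2.0 ± 0.12, adjusted p = 2.86e-09). Skap1, which links the receptor to integrin activation, was read at 6888, 6974 and 6988 and then 2279, 2403 and 2362 (log2 fold change -1.57 ± 0.085, adjusted p = 8.18e-10). Trat1 encodes TRIM, a transmembrane adaptor that associates with the TCR, and was read at 1938, 1820.5 and 2051 and then 697, 629.6 and 749 (log2 fold change -1.49 ± 0.12, adjusted p = 4.03e-08). In these 3 genes every activated library lay under every resting one. Grap2, which encodes GADS, the bridge between LAT and SLP-76, fell by 0.86 on the log2 scale, Nck1 by 0.75 and Sh2d2a by 0.67. Lat itself was -0.19 ± 0.069 and Lcp2 -0.16 ± 0.10, neither past the fold threshold.

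Among effectors, Plcg1 (-1.08), Sos1 (-1.01), Malt1 (-1.15) and Rasgrp1 (-0.51) fell on the log2 scale. Rasgrp1 was past the fold threshold only narrowly, and with libraries rescaled by size factors of their own it was -0.47 and not called. Prkcq was -0.56 ± 0.25 and missed the adjusted p, and it was called when only the groups compared entered the fit. Of the brakes, Ubash3b, whose product STS-1 is a phosphatase of ZAP70, was read at 607, 583 and 583 in resting and 200.2, 183 and 159 in activated Tconvs (log2 fold change -1.71 ± 0.12, adjusted p = 1.13e-08). Pag1, the membrane anchor of CSK, was read at 714, 644 and 634 and then 259.5, 281 and 202 (log2 fold change -1.43 ± 0.20, adjusted p = 2.05e-05). Sla2 was read at 1181, 1161 and 1277 and then 513, 503 and 509 (log2 fold change -1.24 ± 0.10, adjusted p = 9.32e-08). Csk moved the other way, from 1132, 1063 and 1142 to 1670.1, 1764 and 1692 (log2 fold change 0.62 ± 0.078, adjusted p = 6.35e-06), and so did the adhesion molecule Cd2, from 4314, 4215 and 4336 to 6561, 6147 and 6934 (log2 fold change 0.61 ± 0.084, adjusted p = 1.67e-05). No library of 1 state overlapped the other in these 5 genes. Transcripts of both activating and braking genes thus fell together in Tconvs. Of 50 further TCR pathway genes, 8 rose and 20 fell, which is 56% against 50.2% of all genes tested. The largest rise was in Grap (from 2858 ± 146 to 6455 ± 202, SD) and the largest fall in Tespa1 (from 606 ± 73.4 to 58.4 ± 14.8).

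In tTregs activation gave 15 falls and 4 rises among the 40 genes. That is 47.5%, against 21.9% of all 11495 genes tested, of which 11.9% rose and 10% fell. The median log2 fold change was -0.33 over the 40 and 0 over all genes tested. With quantile normalization the split was 2 higher and 19 lower. The tTreg libraries were the most scattered, and 10 of the 19 calls were lost in at least one of the 3 fits that left out the libraries of 1 replicate number, so the 9 that were kept are given first.

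Trat1 was read at 2457, 2162 and 2031 in resting and 1058, 1227 and 1119 in activated tTregs (log2 fold change -0.96 ± 0.12, adjusted p = 3.27e-05). Themis was read at 659, 590.4 and 501 and then 288, 351 and 329 (log2 fold change -0.85 ± 0.12, adjusted p = 0.000133). Sos1, a RAS exchange factor, was read at 179.6, 195 and 192 and then 116, 111 and 111 (log2 fold change -0.74 ± 0.14, adjusted p = 0.0013), and Ubash3a at 2860.2, 2622 and 2422 and then 1503, 1688 and 1575 (log2 fold change -0.73 ± 0.085, adjusted p = 2.6e-05). No library of 1 state overlapped the other in these 4 genes. Sh2d2a (-0.71), Sla2 (-0.70) and Grap2 (-0.61) also fell, while Cd5 (0.62) and Cd6 (0.66), related scavenger-receptor proteins that restrain and tune TCR signaling, rose. Cd5 was read at 4060.3, 4033 and 3533 in resting and 6096, 5409.6 and 6354 in activated tTregs. The calls lost without 1 replicate number were those of Cd3e (-0.51, -0.44 without replicate 1), Txk (-0.50, -0.38 without replicate 1 and -0.50 and just short of the threshold without replicate 2), Plcg1 (-0.58, -0.46 without replicate 1) and Malt1 (-0.51, -0.42 without replicate 1 and -0.45 without replicate 2). They further were those of Cd28 (0.50, 0.45 without replicate 2 and 0.37 without replicate 3), Ptpn6 (0.51, 0.44 without replicate 2 and 0.42 without replicate 3) and Rasgrp1 (-0.53, -0.33 without replicate 3). Without replicate 3 the calls of Pag1 (-0.79, then -0.42) and Ubash3b (-0.55, then -0.39) were lost too. Sla was -0.76 and stood at -0.57 without replicate 1, with libraries of 2672, 2109 and 2231 in resting and 1225, 1841 and 1157 in activated tTregs. Pag1 was read at 425, 452 and 544 in resting and 325, 331 and 187 in activated tTregs, where the third library of each state pulled the groups apart. Of the 50 further pathway genes, 10 changed in tTregs, which is 20% against 21.9% of all genes tested. Each of the 10 fell, Tespa1 the most (from 458 ± 76.5 to 191 ± 15.5, SD), while 11.9% of all genes tested rose and 10% fell.

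The Tconv and tTreg lists of fallen genes shared 13 genes, which is 13 of the 18 that fell in Tconvs and 13 of the 15 that fell in tTregs, or 72.2% and 86.7%. Over all genes tested, 708 genes fell in both, 23.9% of the Tconv list and 61.5% of the tTreg list. The 13 were the kinase Txk, the adaptors Grap2, Themis, Trat1 and Sh2d2a, the effectors Plcg1, Rasgrp1, Sos1 and Malt1, and the brakes Pag1, Ubash3a, Ubash3b and Sla2. Among them, the tTreg calls of Txk, Plcg1, Rasgrp1, Malt1, Pag1 and Ubash3b did not hold in every fit that left out 1 replicate number. Whether the responses differed in size was tested as an interaction, and 15 of the 40 genes passed, 37.5% against 34.7% of all genes tested (17.7% above and 17% below). For 13 of the 15 the tTreg response lay above the Tconv response and for 2 below it, and with quantile normalization the split was 9 and 3.

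Of the 15, 8 passed in every fit that left out 1 replicate number. Skap1 differed by 1.22 ± 0.12 on the log2 scale (adjusted p = 1.94e-06), being read at 4532, 3859 and 4374 in resting and 3088, 3748 and 3241 in activated tTregs against the much wider fall in Tconvs. Ubash3b differed by 1.16 ± 0.17 (adjusted p = 7.68e-05), with 448, 474 and 516 in resting and 372, 330.2 and 282 in activated tTregs. Themis differed by 1.15 ± 0.17 (adjusted p = 0.000102). These genes fell less in tTregs, where Themis (-2.19) and Skap1 (-0.71) had started lower at rest and Ubash3b was -0.30 without a call. Lck (-1.02) and Cd4 (-0.95), given next, were lower in resting tTregs too, whereas Cd5 was 0.35 without a call. The interaction and these differences use the same resting libraries. Lck was read at 7454, 7442 and 5709.8 in resting and 7664, 8120.1 and 8597 in activated tTregs, with libraries that did not overlap. That change was not called (log2 fold change 0.25 ± 0.098, adjusted p = 0.0593). The response of Lck differed from that of Tconvs by 0.87 ± 0.14 (adjusted p = 0.000175). Cd4 and Cd5 differed by 0.79 ± 0.15 and 0.81 ± 0.12. In the opposite direction Csk differed by -0.61 ± 0.11 (adjusted p = 0.000525): it rose in Tconvs and was read at 933, 833 and 834 in resting and 819, 948 and 856 in activated tTregs, which overlapped. Sla differed by -1.01 ± 0.22 (adjusted p = 0.002), with 1701, 1595 and 1731 in resting and 2008, 1816 and 2174 in activated Tconvs. The other 7 calls did not hold in each of those fits: Cd3d (0.55, 0.46 without replicate 2), Zap70 (0.52, adjusted p = 0.191 without replicate 1 and 0.103 without replicate 3), Txk (0.70, adjusted p = 0.0594 without replicate 2), Trat1 (0.52, 0.43 without replicate 2 and 0.49 without replicate 3), Bcl10 (0.62, 0.46 without replicate 1), Malt1 (0.64, adjusted p = 0.0943 without replicate 2 and 0.0846 without replicate 3) and Sla2 (0.55, 0.44 without replicate 2 and 0.45 without replicate 3). Of the 50 further pathway genes 23 passed, 14 above and 9 below, which is 46% against 34.7% of all genes tested.

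**Figure D3:**
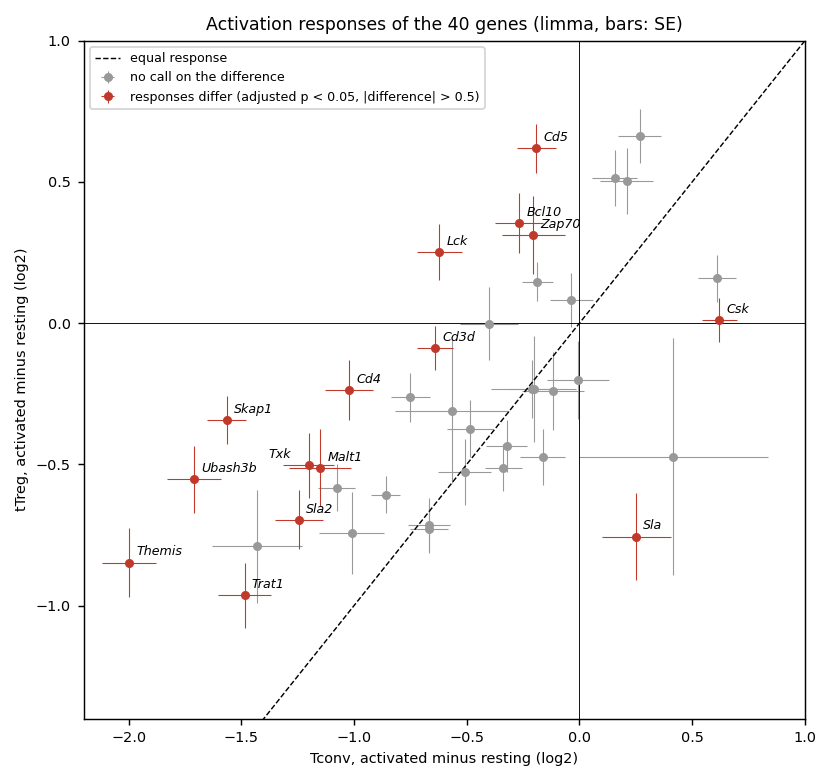
Each point is 1 of the 40 genes; the horizontal axis is its log2 fold change on activation in Tconvs and the vertical axis that in tTregs, with bars for the SE. Red marks the 15 genes whose responses differed; 13 of them lie above the dashed line of equal response, and Csk and Sla lie below it.

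Resting tTregs were then set against resting Tconvs, to see how the genes stood before activation. Of the 40, 14 were lower and 1 was higher in tTregs, which is 37.5% against 38.6% of all genes tested, of which 20.5% were higher and 18.2% lower. The median log2 fold change was -0.33 over the 40 and -0.02 over all genes tested, and with quantile normalization the split was 4 higher and 9 lower. Cd3d, Cd3g and Cd247 were lower by 1.40, 0.82 and 0.70 on the log2 scale at the values given above, and Cd3e was 0.49 ± 0.082 and not past the fold threshold. Quantile normalization moved Cd3e to 0.77, past the threshold, and Cd247 to -0.35, short of it. Of the surface molecules, Cd28 was read at 9610.1, 8810.1 and 9501 in resting Tconvs and 4653, 4249.6 and 3652 in resting tTregs (log2 fold change -1.16 ± 0.12, adjusted p = 9.94e-07). Cd4 was read at 4579, 4972 and 4073 in resting tTregs (log2 fold change -0.95 ± 0.11, adjusted p = 3.22e-06). Cd2 was the gene that was higher, at 10849, 10486 and 9532 in resting tTregs (log2 fold change 1.26 ± 0.084, adjusted p = 1.09e-08). None of these groups overlapped.

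Lck was lower in resting tTregs (log2 fold change -1.02 ± 0.10, adjusted p = 6.11e-07), and so was Zap70 (-0.51, -0.38 without replicate 2 and -0.45 with quantile normalization). Txk was -0.20 ± 0.11 and did not pass the test, with tTreg libraries of 2453, 2111 and 1895 that overlapped the Tconv libraries. The widest differences were in adaptors. Themis was 583 ± 78.9 (SD, n = 3) in resting tTregs and 2658 ± 115 in resting Tconvs (log2 fold change -2.19 ± 0.12, adjusted p = 1.28e-09). Lat, the scaffold on which PLCγ1 and GRB2 assemble, was read at 2604, 2289 and 2564 in resting tTregs and 7420.5, 7928 and 7826 in resting Tconvs (log2 fold change -1.64 ± 0.069, adjusted p = 6.42e-11), and it stayed at 2829, 2766 and 2654 in activated tTregs. Grap2 (-0.91) and Skap1 (-0.71, -0.43 with quantile normalization) were lower as well, whereas Lcp2 was -0.26 ± 0.10 and Trat1 0.19 ± 0.12, neither past the threshold. Plcg1 was lower (-0.61), and Prkcq was lower (-0.70) with libraries that overlapped, at 4964, 5144 and 4040.1 in resting Tconvs and 2125, 2542 and 4474 in resting tTregs. Without replicate 1 the difference of Prkcq was -0.43 and without replicate 2 -0.54, neither called. Of 9 brakes 1 was called, Ptpn6 (-0.54, -0.40 without replicate 3 and -0.47 with quantile normalization). Of the 50 further pathway genes 10 were higher and 14 lower, which is 48% against 38.6% of all genes tested. Ptprj rose the most, from 35.8 ± 2.53 to 525 ± 74.2 (SD), and Rasal3 fell the most, from 4502 ± 1133 to 1143 ± 1013, with an SD close to the tTreg mean.

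iTregs are induced from naive Tconvs by a TCR stimulus, so resting iTregs were compared with resting Tconvs, activated Tconvs and resting tTregs. The 3 comparisons share the resting iTreg libraries and are not independent of each other. Against resting Tconvs, 27 genes were lower and 3 higher, which is 75% against 63.6% of all 11495 genes tested, of which 32.8% were higher and 30.8% lower, and the median log2 fold change was -0.74 over the 40 and 0.02 over all genes tested. Against activated Tconvs, 11 were lower and 3 higher, 35% against 41.6% of all genes tested (22.9% higher and 18.7% lower), with a median of -0.15 over the 40 and 0.02 over all. Against resting tTregs, 16 were lower and 6 higher, 55% against 63.4% of all genes tested (32.3% higher and 31.1% lower), with medians of -0.40 and 0.02. Quantile normalization moved the median of all genes tested by -0.13, -0.10 and -0.11 in the 3 comparisons, and the split against resting tTregs was then 4 higher and 21 lower.

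The receptor subunits were lower in resting iTregs than in resting Tconvs in all 4 cases, with log2 fold changes of -0.76 ± 0.082 for Cd3e, -1.02 ± 0.078 for Cd3d, -0.63 ± 0.10 for Cd3g and -1.83 ± 0.10 for Cd247. Against activated Tconvs, in which Cd247 was read at 6345, 6419 and 6917, it was again lower (log2 fold change -1.62 ± 0.10, adjusted p = 7.05e-09). Against resting tTregs Cd3e (-1.24) and Cd247 (-1.13) were lower. Of the surface molecules, Cd4 was read at 4231, 4505 and 5429 and Cd28 at 6024, 5750.5 and 7202 in resting iTregs, and both were lower than in resting Tconvs (-0.90 and -0.56). Cd28 was higher than in resting tTregs (0.60, 0.40 without replicate 3 and 0.24 with quantile normalization). Cd2 was higher than in resting Tconvs (log2 fold change 0.89 ± 0.084, adjusted p = 1.74e-07), at 7389, 7523 and 8952. Cd5 and Cd6 were not called in the iTreg comparisons, but quantile normalization called Cd5 against resting tTregs (-0.68) and Cd6 against activated Tconvs (-0.52).

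Txk stood out among all 40. It was read at 139, 156 and 197 in resting iTregs, against the values above for Tconvs and resting tTregs. That was 15.0 times lower than in resting Tconvs by group means (log2 fold change -3.91 ± 0.11, adjusted p = 3.62e-13), and the log2 fold change was -2.71 ± 0.11 against activated Tconvs and -3.71 ± 0.11 against resting tTregs. Each resting iTreg library lay far below the lowest of the other 3 groups, and Txk, at chr5:72695978-72752777 on the minus strand, was the lowest of the 4 kinases per kilobase there, at 70.0 against 1049 in resting Tconvs. Lck was lower than in resting Tconvs (-0.58) and Fyn too (-0.80). Zap70, which docks on the receptor tails, was read at 2656, 2665 and 3125 in resting iTregs, 2507, 2722 and 2755 in resting Tconvs and 1860.5, 1589.5 and 2186 in resting tTregs, and was called against tTregs (0.59, 0.37 and not called with quantile normalization).

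Adaptors did not move as one. Lat was read at 7473, 7780.3 and 7339 in resting iTregs, within the range of resting Tconvs in 2 of 3 libraries and -0.04 ± 0.069 on the log2 scale, and it lay far above resting tTregs (log2 fold change 1.60 ± 0.069, adjusted p = 3.38e-11). Themis was read at 2085, 2234 and 2874, -0.16 ± 0.12 against resting Tconvs, and was higher than in activated Tconvs (log2 fold change 1.84 ± 0.12, adjusted p = 1.02e-08) and resting tTregs (log2 fold change 2.03 ± 0.12, adjusted p = 1.16e-09). In both genes iTreg libraries overlapped resting Tconvs and lay above every tTreg library. Fyb, which encodes ADAP, the partner of SKAP1 in integrin activation, was lower in all 3 comparisons, at 1508, 1334 and 1392 in resting iTregs, 3364, 3261 and 3087 in resting Tconvs, 2596, 2562 and 2602 in activated Tconvs and 3950.5, 4699 and 3589 in resting tTregs (-1.20 ± 0.091, -0.88 ± 0.091 and -1.52 ± 0.091). Of the exon bases of Fyb, 10.2% also lie in exons of Gm2245 or Gm7666, so some of its reads may be theirs. Trat1 was read at 813, 874 and 1115, lower than in resting Tconvs (-1.06) and resting tTregs (-1.26). Skap1 (-1.13), Nck1 (-1.13), Grap2 (-0.95), Lcp2 (-0.72) and Sh2d2a (-0.57, -0.47 without replicate 1) were lower than in resting Tconvs.

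Of the effectors, Sos1 was read at 98.0, 92.8 and 131 in resting iTregs and 260.2, 253 and 258 in resting Tconvs (log2 fold change -1.27 ± 0.14, adjusted p = 1.25e-06). Plcg1, the enzyme that opens the calcium branch, was read at 889.5, 858 and 951 in resting iTregs, 2164, 2117 and 2075 in resting Tconvs, 1012, 992 and 1009 in activated Tconvs and 1437, 1407 and 1313 in resting tTregs, and was lower than in both resting groups (-1.24 and -0.62). Rasgrp1 (-1.05), Prkcq (-1.24) and Bcl10 (-0.50, -0.49 without replicate 2) were lower than in resting Tconvs. Malt1 was read at 344, 386 and 477 and was higher than in activated Tconvs (log2 fold change 0.90 ± 0.14, adjusted p = 5.29e-05), where it was read at 236, 189 and 215. Vav1 was not called in any of the 11 comparisons, and its libraries lay between 2001 and 2578 normalized counts throughout.

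The brakes, with Ptprc grouped among them although CD45 acts on LCK in both directions, split into genes that were lower and genes that were higher in iTregs. Pag1 was read at 141, 149 and 108 in resting iTregs, lower than in resting Tconvs (log2 fold change -2.33 ± 0.20, adjusted p = 6.36e-08), activated Tconvs (log2 fold change -0.89 ± 0.20, adjusted p = 0.00162) and resting tTregs (log2 fold change -1.83 ± 0.20, adjusted p = 9.77e-07). Ptprc, the CD45 phosphatase, was read at 7503, 8175 and 10672, against 19921, 18927 and 19384 in resting Tconvs, 20007, 17199 and 20973 in activated Tconvs and 23183, 21519 and 17183 in resting tTregs (-1.16 ± 0.14, -1.15 ± 0.14 and -1.24 ± 0.14). Ptpn22, which removes the activating phosphate of LCK and ZAP70, was read at 882, 907 and 1085, against 2271, 2227 and 2272 in resting Tconvs and 2472, 2809 and 2010.3 in resting tTregs (-1.24 ± 0.13 and -1.33 ± 0.13). In these 3 genes every iTreg library lay below every library of the groups named. Sla2 was read at 396, 396 and 463, lower than in resting Tconvs (log2 fold change -1.53 ± 0.10, adjusted p = 4.34e-09) and resting tTregs (log2 fold change -1.55 ± 0.10, adjusted p = 4.24e-09). Reads of Sla2 can be shared with Rab5if, which overlaps 23.6% of its exon bases on the other strand. In the other direction Ptpn6, which encodes SHP-1, was read at 2605, 2655 and 2864, against 1740.2, 1799 and 1927 in resting Tconvs and 1431, 1252 and 1086 in resting tTregs (0.57 ± 0.10 and 1.12 ± 0.10). Csk was read at 1549, 1719 and 1621 (0.55 ± 0.078 and 0.91 ± 0.078). Against resting Tconvs these were not called with quantile normalization (0.43 for Ptpn6 and 0.38 for Csk), and Csk was 0.48 without replicate 2. Of the 50 further pathway genes, 8 were higher and 25 lower than in resting Tconvs, 6 and 13 than in activated Tconvs, and 7 and 22 than in resting tTregs. Those are 66%, 38% and 58% of them, against 63.6%, 41.6% and 63.4% of all genes tested. The largest difference that was lower than in resting Tconvs was that of Tagap (3399 ± 143 against 358 ± 22.3 in iTregs, SD).

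**Figure D4:**
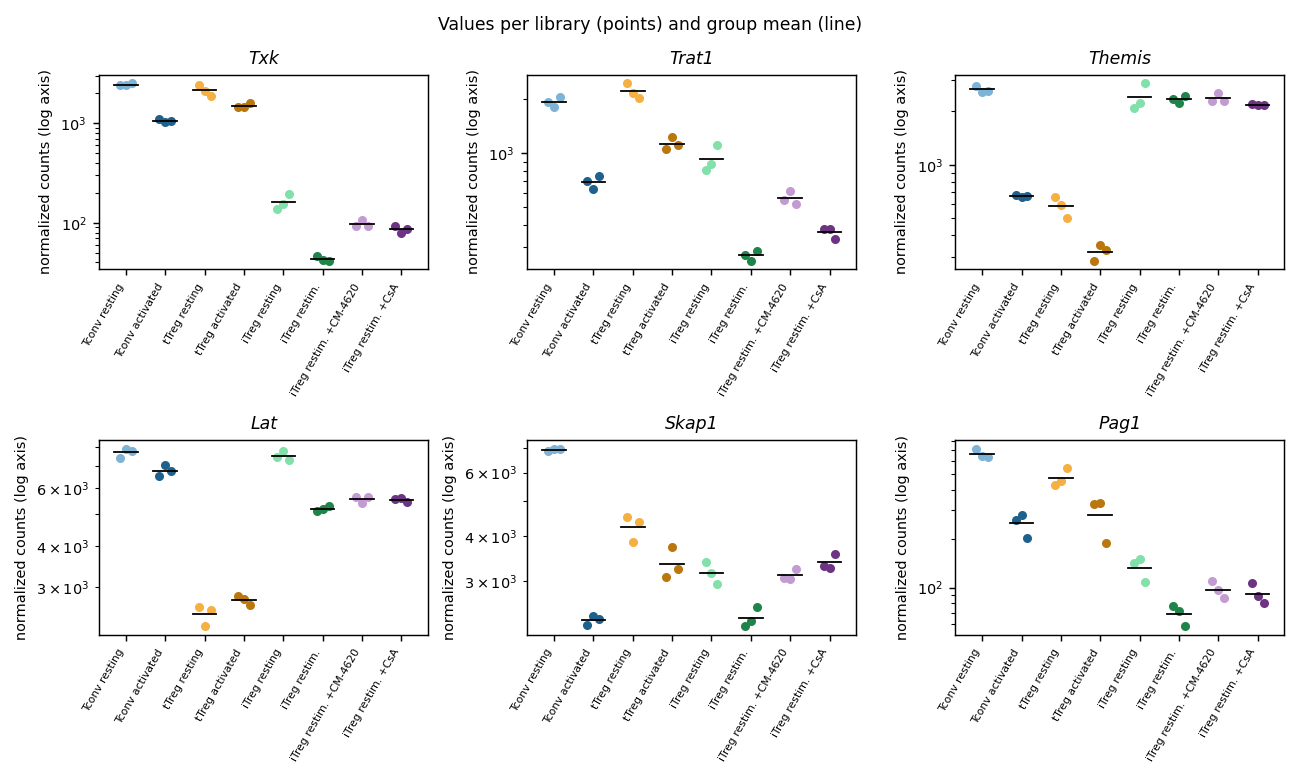
Normalized counts on a log axis for Txk, Trat1, Themis, Lat, Skap1 and Pag1 by group; points are libraries and lines are group means over 3 libraries. Txk lies at 197 or less in every iTreg library, Themis and Lat in iTregs lie far above tTregs, and Trat1 and Txk are lowest in restimulated iTregs without inhibitor.

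Restimulation of iTregs through CD3 and CD28 was the next comparison. Of the 40 genes, 5 fell and 1 rose, which is 15% against 12.8% of all 11105 genes tested. Of all genes tested, 6.7% rose and 6.13% fell. The median log2 fold change was -0.18 over the 40 and -0.01 over all genes tested. All 6 calls held in each fit that left out 1 replicate number. They were the kinase Txk, the adaptors Trat1 and Lat, the effectors Rasgrp1 and Malt1 and the brake Pag1. During restimulation Foxp3 went from 1280 to 710 normalized counts by group means.

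Txk, low already, was read at 46.3, 42.6 and 41.8 in restimulated iTregs (log2 fold change -1.88 ± 0.14, adjusted p = 1.8e-07), which is 38 reads or more in each library and so above the floor of 3 reads. Trat1 was read at 272, 252 and 285 (log2 fold change -1.78 ± 0.11, adjusted p = 2.63e-08), and Pag1 at 76.5, 71.7 and 58.1 (log2 fold change -0.93 ± 0.16, adjusted p = 0.000561). Rasgrp1, which opens the RAS branch, was read at 1001, 1217 and 1181 in resting and 724, 808 and 719 in restimulated iTregs (log2 fold change -0.59 ± 0.10, adjusted p = 0.000291). Lat was read at 5108, 5184 and 5301 (log2 fold change -0.53 ± 0.046, adjusted p = 7.19e-07). Malt1, the protease of the NF-κB branch, rose to 624, 609.6 and 653 (log2 fold change 0.66 ± 0.10, adjusted p = 0.000185). In each of the 6 genes the resting and restimulated libraries did not overlap. The same held for genes that were not called, among them Cd3d, Lck, Grap2, Skap1 and Csk, so it does not set the 6 apart. Of the 5 fallen genes, 4 had also fallen on activation in Tconvs and in tTregs, namely Txk, Trat1, Rasgrp1 and Pag1. Malt1, which rose here, had fallen in both. The tTreg calls of Txk, Rasgrp1, Pag1 and Malt1 were among those lost without 1 replicate number, and that of Trat1 was kept. The share of such shared falls over all genes was not counted. Whether the lower Foxp3 level has a part in these changes was not tested.

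The other genes were not called. Themis, which fell most in Tconvs, was read at 2362, 2216 and 2449.5 in restimulated iTregs (-0.02 ± 0.093), Cd247 was -0.47 ± 0.059, Csk -0.45 ± 0.061, Skap1 -0.41 ± 0.065 and Plcg1 0.37 ± 0.061. Was passed the fold threshold but not the adjusted p (log2 fold change -0.72 ± 0.47, adjusted p = 0.279), with libraries of 351, 793 and 243 in resting and 292, 396 and 131 in restimulated iTregs, which overlapped. Calls were gained by Cd247 (-0.54) and Ptprc (-0.54) without replicate 1, by Fyn (-0.57) without replicate 2, and by Skap1 (-0.51) and Was (-0.63) without replicate 3. With the replicate number as a block Was was called too, at -0.72 (limma adjusted p = 0.00257). Of 49 further pathway genes tested, 2 rose and 9 fell, which is 22.4% against 12.8% of all genes tested. The largest rise was in Cblb (from 850 ± 103 to 1425 ± 111, SD), a ubiquitin ligase that restrains TCR signaling, and the largest fall in Tespa1 (from 182 ± 30.2 to 70.1 ± 8.61).

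CM-4620 and CsA were used to ask which of these changes need calcium entry or calcineurin. With CM-4620, Txk and Trat1 were higher than in restimulated iTregs without inhibitor, 5% of the 40 genes against 3.3% of all genes tested (1.5% higher and 1.79% lower). With CsA, Txk and Skap1 were higher, 5% against 2.92% (1.57% higher and 1.35% lower). Txk was read at 92.8, 107 and 92.1 with CM-4620 (log2 fold change 1.14 ± 0.14, adjusted p = 0.00013) and 92.0, 79.0 and 86.4 with CsA (log2 fold change 0.96 ± 0.14, adjusted p = 0.000695), and no library with inhibitor overlapped either the restimulated or the resting ones. Trat1 was read at 551, 619 and 521 with CM-4620 (log2 fold change 1.06 ± 0.11, adjusted p = 3.14e-05) and 376, 379.7 and 332 with CsA (log2 fold change 0.42 ± 0.11, adjusted p = 0.027, short of the fold threshold). Without replicate 3 the latter passed the threshold at 0.53. Skap1 was read at 2261, 2337 and 2557 without inhibitor, 3071, 3048 and 3239.7 with CM-4620 (log2 fold change 0.39 ± 0.065, adjusted p = 0.0016, short of the fold threshold) and 3304, 3278 and 3582 with CsA (log2 fold change 0.51 ± 0.065, adjusted p = 0.000267). Without replicate 1 the CsA difference of Skap1 was 0.49 and no longer called. In both inhibitor groups Skap1 was within or above the range of resting iTregs, at 3395, 3166 and 2953.

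Of the 6 genes called on restimulation, 2 were thus rescued by CM-4620 and 1 by CsA, rescued meaning called in the opposite direction between inhibitor and restimulation. A rescue therefore needed a reverse change above 0.5 on the log2 scale. Lat (-0.53), Rasgrp1 (-0.59) and Malt1 (0.66) had changed little more than that on restimulation. They could pass only if most of their change was undone, so the count does not compare the 6 genes evenly. Over all 1425 genes called on restimulation, 18% were rescued by CM-4620 and 13.7% by CsA. The part of the log2 change of restimulation that was left under inhibitor was 39.1% with CM-4620 and 48.8% with CsA for Txk, and 40.4% and 76.1% for Trat1. It was 47.2% and 56.5% for Pag1, 41.8% and 79.6% for Malt1, 71.0% and 89.4% for Rasgrp1, and 81.0% and 82.2% for Lat. The values of Lat were 5654, 5434 and 5642 with CM-4620 and 5578, 5621 and 5456 with CsA, above those without inhibitor in every library yet far under the resting ones. Malt1 was read at 462, 529.9 and 458 with CM-4620 and 568, 573 and 578 with CsA, and Pag1 at 109, 95.9 and 86.0 and 106, 88.3 and 80.0. The group means of both lay between those of restimulated iTregs and resting iTregs, without a call (-0.38 ± 0.10 and -0.13 ± 0.10 for Malt1, 0.49 ± 0.16 and 0.41 ± 0.16 for Pag1). Compared directly, the inhibitor groups differed in Trat1, higher with CM-4620 (log2 fold change 0.63 ± 0.11, adjusted p = 0.0097), 2.5% of the 40 genes against 0.36% of all genes tested (0.0991% higher and 0.261% lower). That call was lost without replicate 1 (0.68, limma adjusted p = 0.186) and without replicate 2 (0.60, adjusted p = 0.344). For Txk the difference between inhibitors was 0.18 ± 0.14, and for Malt1 -0.25 ± 0.10. Of 49 further pathway genes, 3 were higher and 2 lower with CM-4620 than without inhibitor, and 2 were higher with CsA. Those are 10.2% and 4.08% of them, against 3.3% and 2.92% of all genes tested. Cd226, a costimulatory receptor, rose the most with both, from 189 ± 22.8 to 309 ± 36.1 with CM-4620 and 286 ± 13.2 with CsA (SD).

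**Figure D5:**
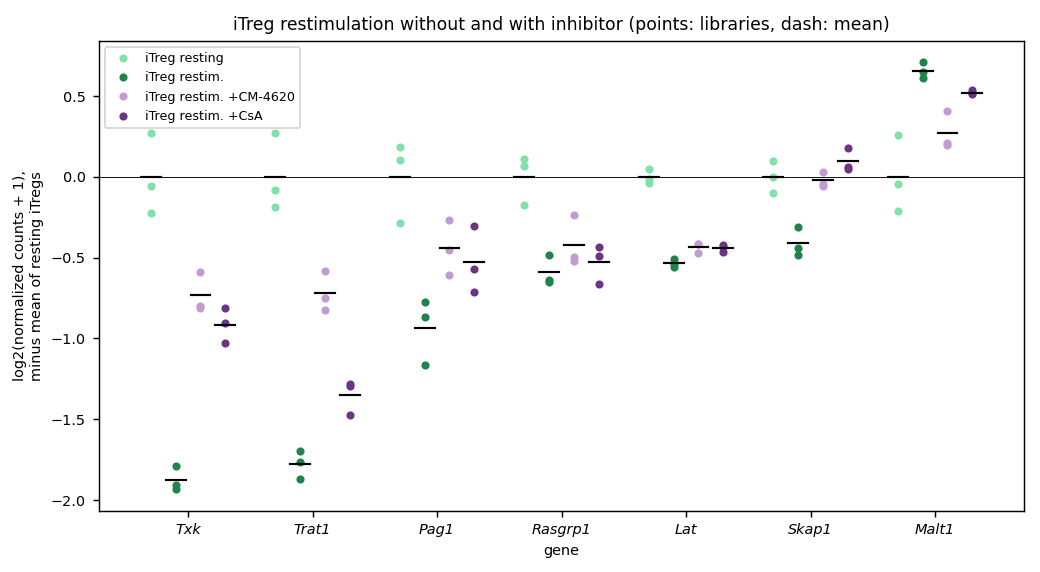
Each point is 1 iTreg library and gives log2(normalized counts + 1) minus the mean of resting iTregs for 7 genes; dashes are means over 3 libraries. Txk and Trat1 lie at means of -1.88 and -1.78 after restimulation and higher with either inhibitor, while Lat lies at -0.53 without inhibitor and keeps 81.0% or more of that change with either.

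Because both inhibitors act on the path to NFAT, promoters of 3 of the fallen genes, Txk, Trat1 and Lat, are shown. Txk was rescued by both inhibitors, Trat1 by CM-4620 but not by CsA, and Lat by neither. Rasgrp1 and Pag1, which fell and were not rescued either, are not shown. Pag1 had no promoter entry, and the start in the entry of Rasgrp1 lay too far inside the annotated gene. Promoters of 31 of the 40 genes were matched. The 250 bases before the RefSeq start (GRCm38.p6) are written 5′ to 3′ on the strand of the gene, which is the minus strand for all 3, at chr5:72752778-72753027 for Txk, chr16:48772063-48772312 for Trat1 and chr7:126369569-126369818 for Lat. Capitals mark matches, on either strand, to GGAAA (the core of NFAT sites, which also lies within some ETS sites), TGANTCA (AP-1) and TGTGGT (RUNX).
Txk: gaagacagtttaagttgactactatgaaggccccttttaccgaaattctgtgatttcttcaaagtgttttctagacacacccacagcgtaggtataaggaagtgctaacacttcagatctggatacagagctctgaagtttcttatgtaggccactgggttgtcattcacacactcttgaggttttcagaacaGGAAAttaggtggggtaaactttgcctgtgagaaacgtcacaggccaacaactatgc
Trat1: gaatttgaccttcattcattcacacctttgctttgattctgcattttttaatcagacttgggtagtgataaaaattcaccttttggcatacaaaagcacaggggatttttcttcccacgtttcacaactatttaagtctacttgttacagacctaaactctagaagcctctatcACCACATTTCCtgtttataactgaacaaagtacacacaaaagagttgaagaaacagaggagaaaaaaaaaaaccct
Lat: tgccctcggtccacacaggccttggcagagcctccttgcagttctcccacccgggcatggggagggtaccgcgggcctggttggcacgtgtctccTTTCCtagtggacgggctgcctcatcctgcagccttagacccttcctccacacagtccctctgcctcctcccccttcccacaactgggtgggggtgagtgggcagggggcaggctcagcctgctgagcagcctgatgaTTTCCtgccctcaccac
The NFAT core was matched 1 time in Txk, 1 time in Trat1 and 2 times in Lat, so rescued genes and Lat alike held it. Trat1 also held a RUNX match directly before its NFAT core match. Matches are common: of all 32851 RefSeq promoters cut to the same length, 55.6% held GGAAA, 14% held TGTGGT and 6.75% held TGANTCA. Among the 31 matched genes these letters were found in 22 for GGAAA, in 5 for TGTGGT (Lck, Trat1, Was, Sos1 and Sla2) and in 0 for TGANTCA. A match is a description of letters in this window and says nothing of binding.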

How the data were processed

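RNA was measured by SMART-seq2, which does not keep strand, in 24 libraries. The authors trimmed reads with Cutadapt 1.18, aligned them to the mouse genome (mm10) with STAR 2.5.3 and counted genes with RSEM 1.3.0. The deposited values are normalized counts, a signal that the authors made by dividing each gene's count by one size factor per library with DESeq2 1.26. Whole reads could be recovered from 100% of values (tolerance 0.01 reads), at 5256800 to 15685234 per library, and 3 reads, taken as the floor, equal 2.12 to 5.45 normalized counts, which covers counting error only.

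Groups were taken from the sample labels. Values were tested as log2(normalized counts + 1) with limma 3.58.1 (R 4.3.3), letting the prior variance follow the mean, and with Benjamini-Hochberg adjustment over all genes tested. One fit held the 15 libraries of resting and activated Tconvs and tTregs and of resting iTregs (11495 genes) and another the 12 iTreg libraries (11105 genes), and a gene was kept with 10 or more normalized counts in 3 or more libraries of the fit. A call needed an adjusted p under 0.05 and an absolute log2 fold change above 0.5, a fold that understates change in low genes. The 11 comparisons are contrasts of group means. Overlap of libraries is a description of the values shown and was not counted over all genes. Fits were tested on simulated data. Other scalings, pseudocounts, filters, sample sets, a replicate block and leaving out each replicate number were tried, and edgeR 4.0.16 and DESeq2 1.42.0 on recovered reads were added after seeing the data. Levels per kilobase used the length of 1 principal transcript per gene. Values in every library were given for up to 6 called genes per comparison, those with the largest absolute log2 fold changes, and for the receptor subunits, and values of further members were chosen after they were seen. Members and lists were chosen with earlier results of these data known. Figures were drawn with matplotlib 3.10.9.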

Additional observations from a re-analysis of the deposited data

Results flagged for a closer look

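The response to activation differed between tTregs and Tconvs for 15 of the 40 genes, by the interaction term of the limma fit. As log2 differences (tTreg response minus Tconv response), those above 0 were 1.22 for Skap1, 1.16 for Ubash3b, 1.15 for Themis, 0.87 for Lck, 0.81 for Cd5, 0.79 for Cd4 and 0.70 for Txk. The smaller ones above 0 were 0.64 for Malt1, 0.62 for Bcl10, 0.55 for Cd3d, 0.55 for Sla2, 0.52 for Trat1 and 0.52 for Zap70. Zap70 lay at the edge of the threshold, with a limma adjusted p of 0.0495. Below 0 were Csk at -0.61 and Sla at -1.01.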

How the results depend on the processing

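The precision is limited by 3 libraries per group and, in tTregs, by a wide spread between them. In all, 3505 log2 fold changes were recomputed under other scalings, pseudocounts, filters, sample sets and a replicate block. Of these, 3457 kept their call or lack of a call, 28 lost a call and 20 gained one. Direction was compared only where a call was made in at least 1 of the 2 fits. Leaving out 1 replicate number lost 43 of 1320 calls or non-calls and gained 29. With edgeR and DESeq2 on recovered reads 12 of 880 lost a call and 2 gained one. Of all 5705 values, 0 changed direction past the threshold.

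Without 1 replicate number the count of genes called ran from 20 to 21 for Tconv activation, from 14 to 17 for tTreg activation, from 11 to 15 for the difference between them, from 14 to 18 for resting tTregs against resting Tconvs, from 28 to 31 for resting iTregs against resting Tconvs, at 13 against activated Tconvs, from 22 to 25 against resting tTregs and from 7 to 8 for restimulation. For CsA against restimulated iTregs it ran from 1 to 3, for CM-4620 against CsA from 0 to 1, and for genes rescued by CsA from 1 to 3. The cause was not tested.

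With the replicate number as a replicate block, 20, 19, 15, 15, 30, 13, 22, 7, 2, 2 and 1 genes were called in the 11 comparisons in the order of the report (activation in Tconvs, in tTregs and their difference, then resting tTregs and iTregs, restimulation and inhibitors). Libraries with the same number did not deviate together in the first fit (mean correlation -0.007). In the iTreg fit 10 of 18 such pairs passed 0.1 (mean 0.152, lowest -0.0389), against a mean of -0.0754 for pairs with other numbers. There the block raised the count of all genes called in each comparison, on restimulation from 1425 to 1500. The labels name no pairing, so none was used, and whether the iTreg libraries were paired was not settled.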

Other observations

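Was, which encodes the actin regulator WASP, had the widest spread within groups of all 40 genes, with a pooled SD of 0.659 on the log2 scale against a median of 0.11. It was read at 387, 396 and 199 normalized counts in resting Tconvs and at 351, 793 and 243 in resting iTregs, and the library with replicate number 3 was lowest in 7 of 8 groups. Pag1 (pooled SD 0.249) was lowest in replicate 3 in 7 of 8 groups too, and Prkcq (pooled SD 0.295) in 6 of 8. The labels do not say what the replicate numbers share, and the cause was not tested. Was was not called in any comparison with the deposited values, but on restimulation of iTregs it was called without replicate 3 (log2 fold change -0.63, limma adjusted p = 0.049) and with the replicate number as a block (-0.72, adjusted p = 0.00257).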
